A study of Procotyla fluviatilis with 12 samples.

Results

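Amputated tissue of the regeneration-proficient (Reg+) body region of the planarian *Procotyla fluviatilis* was compared with uncut tissue of the same region. The comparison used 6 of the 12 libraries of the series, the 3 titled Reg+ amputated and the 3 titled Reg+ uncut. Adult worms were field-collected and kept at 18 °C. In the Reg+ amputated group they were cut anterior to the pharynx, and tissue just behind the cut was excised 24 hours later. The Reg+ uncut group gave tissue of the comparable anterior site from worms that had not been cut. The labels name no other treatment and no genetic change in either group. Each library came from a pool of 3 worms, so worm-to-worm variation within a pool is not visible, and nothing in the labels says whether the pools of a group were collected separately. The p-values therefore measure the spread between these pools, which may in part be technical.

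Planarians rebuild lost parts from neoblasts, the dividing stem cells of the adult body, which gather below a closed wound and form a growing bud, the blastema. In planarians studied in detail, a cut first switches on a common set of wound genes, and the missing head or tail is then specified by position-control genes, among them those of the Wnt/beta-catenin pathway, which gives tissue its posterior identity. *P. fluviatilis* belongs to the planarians that rebuild a head from some levels of the body and fail at others, and the study asked what differs between these levels after a cut. The files list reads per contig of a de novo assembled transcriptome and pair no contig with a gene name. None of these gene classes could be looked up, nor could the tissue be checked against marker genes. Results are given by contig identifier and length, and 1 gene can be split over several contigs. In bulk tissue, fewer cells of a type and less RNA per cell cannot be told apart.

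Of 149594 contigs, 56867 had at least 10 reads in 3 or more of the 6 libraries and were tested. Another 84742 had reads below this minimum and 7985 had none. Tested contigs had a median length of 606 nt, against 348 nt for all contigs, and held 99.164% to 99.443% of the reads of each of these libraries. The 6 libraries held 22038256 to 31266924 reads each, of which 96.71% to 97.09% were uniquely assigned.

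The likeness of the libraries bears on the meaning of the labels. Across the tested contigs, Reg+ amputated libraries had a mean Spearman correlation of 0.9676 with each other (3 pairs) and 0.8886 with Reg+ uncut libraries (9 pairs). With the uncut libraries of the other, regeneration-deficient (Reg-) region they correlated at 0.9592. Reg+ uncut libraries correlated at 0.9562 with each other and at 0.9419 with the Reg- amputated libraries. An exchange of labels between whole groups and a true likeness of this kind cannot be told apart in this design. Directions below hold as labelled. Within the uncut group, replicate 3 stood nearest to the amputated libraries, with correlations up to 0.916, where uncut replicates 1 and 2 reached at most 0.894. It also correlated more with Reg- amputated replicate 2 (0.9643) than with uncut replicates 1 and 2 (0.9544 and 0.9463). Those 2 correlated most with each other (0.9678), and at up to 0.9632 and 0.9608 with Reg- amputated libraries. Whether any single library carries a wrong label was not tested. The counts of calls and of 4-fold and 16-fold changes are given with and without uncut replicate 3.

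Expression of 6384 contigs differed between amputated and uncut Reg+ tissue. This was 11.2% of those tested, at a Benjamini-Hochberg adjusted p under 0.05 in edgeR's two-sided quasi-likelihood test of the 6 libraries. Of these, 3437 rose (6.04% of the tested contigs) and 2947 fell (5.18%) after amputation. At an unadjusted p under 0.05 the number was 17160. Median log2 fold changes were 1.45 for contigs that rose and -1.35 for contigs that fell, against -0.0167 over all tested contigs. In reads scaled to contig length and library total (RPKM), the median level over the 6 libraries was 6.99 for contigs that rose, 6.90 for contigs that fell and 4.77 for all tested contigs.

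The balance of the directions depended on the fit and on each library. Without uncut replicate 3, 10699 contigs were called, and 67.9% of them were higher after amputation instead of 53.8%. Leaving out any of the other 5 turned the balance the other way. Without amputated replicates 1, 2 and 3 in turn, 1690, 1872 and 4597 contigs were called, with 41.1%, 43.3% and 43.2% higher. Without uncut replicates 1 and 2 the calls numbered 1849 and 3021, with 34.0% and 35.9% higher. Fitting all 12 libraries with 1 shared estimate of the spread gave 4277 calls (7.52%), of which 32.1% were higher. In that fit 5.11% of the tested contigs were lower and 2.41% higher. It called 2454 of the 2947 contigs that fell but 1169 of the 3437 that rose. These figures also hung on the Reg- libraries. Without Reg- amputated replicates 1, 2 and 3 in turn, the 12-library fit gave 6585, 3951 and 7723 calls in the Reg+ comparison. Of these, 44.2%, 30.6% and 51.4% were higher. Without 1 Reg- uncut library the share was 30% to 30.2%. Scaling by library size alone called 4701 contigs with 39.0% higher. No contig called in the 6 libraries was called in the opposite direction in the 12-library fit, with library size alone or without 1 Reg+ library. These fits share libraries, and 99.9% of the called contigs had groups that did not overlap in CPM, so this was close to given.

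**Figure D1:**
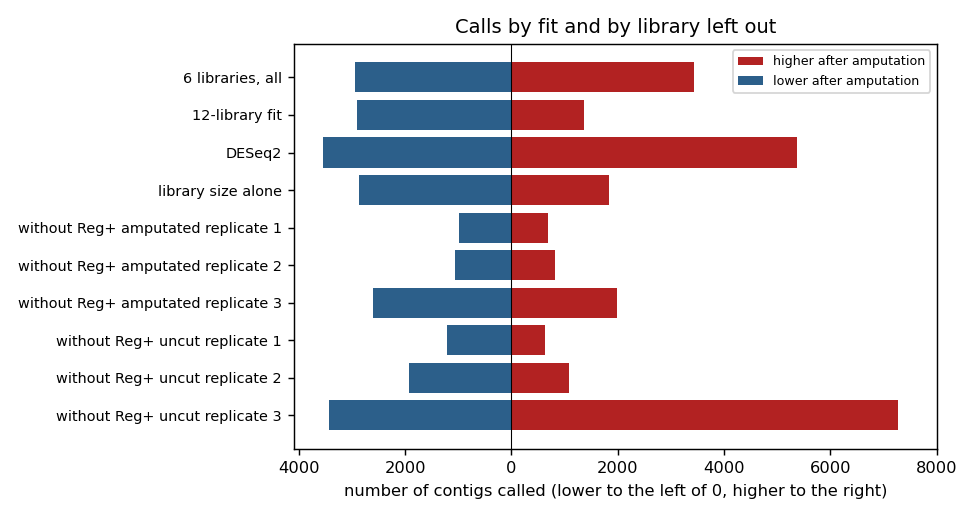
Number of contigs called at an adjusted p under 0.05 in each fit, lower after amputation to the left of 0 and higher to the right. Leaving out uncut replicate 3 raised the higher calls to 7269, and leaving out amputated replicate 1 lowered them to 695.

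Calls were spread over the whole range of levels. The share called was 6.62% of contigs with a mean under 1 CPM (reads scaled to the library total alone), 12.3% at 1 to 10 CPM, 14.8% at 10 to 100 CPM and 11.1% at 100 CPM and over. The median log2 fold change of called contigs was 1.91 for rises and -1.90 for falls under 1 CPM, and 0.968 and -0.951 at 100 CPM and over. These medians are of called contigs, which need a larger change to be called where reads are few. Replicates were also less even at low levels, with a median coefficient of variation of 30.0% in amputated and 32.5% in uncut libraries under 1 CPM, and of 8.86% and 9.99% at 100 CPM and over. The balance of the directions differed with contig length: of contigs under 300 nt 5.13% rose and 4.52% fell, of those from 300 to under 1000 nt 7.35% and 4.43%, and of those of 1000 nt and over 4.43% and 6.94%. Whether length itself had a part in this was not tested.

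**Figure D2:**
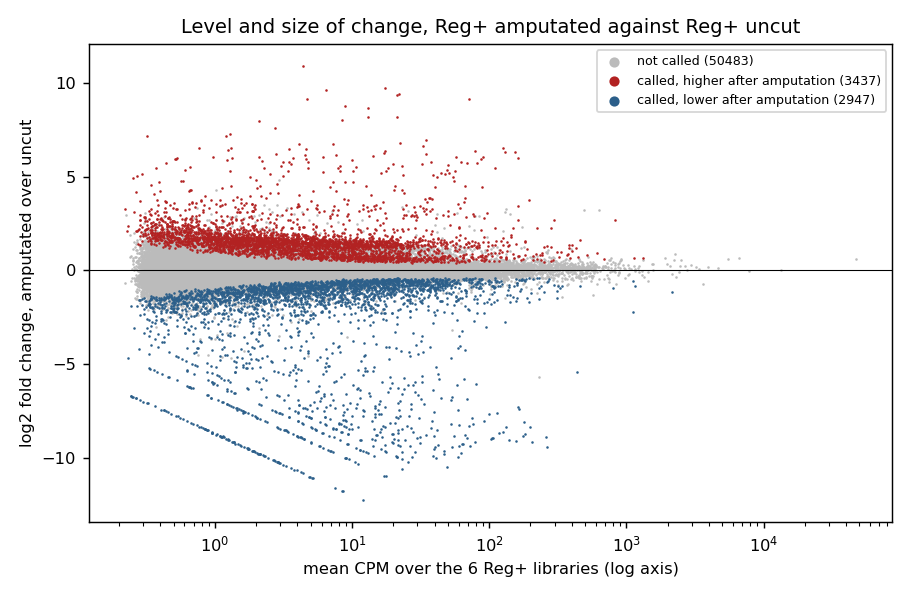
Each point is a contig, with its mean CPM over the 6 Reg+ libraries (log axis) against its log2 fold change, amputated over uncut. The 3437 contigs that rose lie mostly near the band of uncalled contigs, while 597 of the 2947 that fell lie at -4 or below; the diagonal lines at the lower left are contigs with 0 or few reads after amputation, whose fitted value depends on the prior count.

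The sizes of change were not mirror images. Of the contigs that rose, 21.9% changed less than 2-fold, 637 at least 4-fold and 135 (3.93%) at least 16-fold. Of those that fell, 32.0% changed less than 2-fold, 910 at least 4-fold and 597 (20.3%) at least 16-fold. With contigs that had no read in 1 group set at their lower bound, against 3 reads over that group, the counts of 16-fold changes were 135 and 590, and the medians were again 1.45 and -1.35. Without uncut replicate 3, the contigs changed at least 4-fold numbered 2791 instead of 1547, and those changed at least 16-fold 251 that rose and 595 that fell. Of the contigs that fell, 104 had no read and another 246 had 1 to 5 reads over the amputated group, so that the fitted size of their change depends on the prior count. All 597 had at least 10 reads in each uncut library, but only 108, 72 and 109 did in amputated replicates 1, 2 and 3. All 135 had at least 10 reads in each amputated library, and 46, 47 and 61 in uncut replicates 1, 2 and 3. Both sets thus met the read minimum through the group where they were high, whatever their reads in the other. Counts of 16-fold changes were not repeated for contigs with at least 10 reads in all 6 libraries.

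The 597 contigs that fell at least 16-fold took 1.05%, 2.19% and 2.62% of reads in uncut replicates 1, 2 and 3, and 0.0157%, 0.0147% and 0.0164% in amputated replicates 1, 2 and 3. The gap between the groups was set by the selection, and so in part was the spread inside them, since a call needs even replicates. Amputated replicates 1, 2 and 3 had no read of 189, 295 and 188 of the 597. Uncut replicate 1 was the lowest uncut library for 494 of the 597. Over all contigs that fell, uncut replicate 1 was the lowest for 33.1% and uncut replicate 2 for 51.2%. The median length of the 597 was 353 nt and their median level 12.8 RPKM.

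The 135 contigs that rose at least 16-fold took 0.483%, 0.739% and 0.436% of reads in amputated replicates 1, 2 and 3. In uncut replicates 1, 2 and 3 they took 0.00772%, 0.00778% and 0.0227%. Here uncut replicate 3 stood above the other uncut libraries, as it did over the whole set of contigs that rose, where it was the highest uncut library for 2736 of 3437 (79.6%). Among contigs that fell it was the lowest uncut library for 15.7%.

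**Figure D3:**
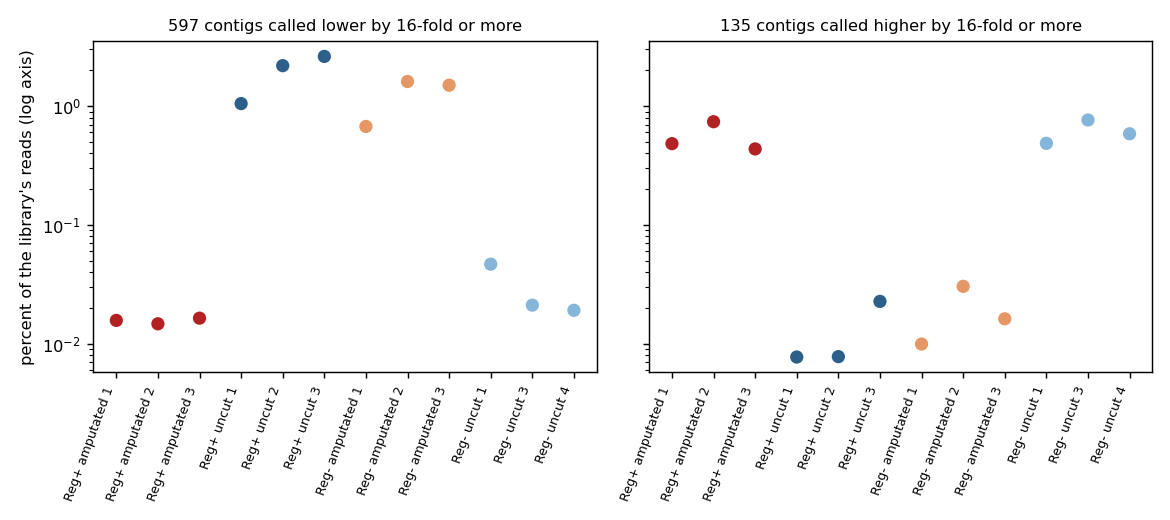
Percent of each library's reads (log axis) taken by the 597 contigs called lower (left) and the 135 called higher (right) by 16-fold or more in Reg+ tissue, one point per library. The difference between the Reg+ groups was set by the selection; the 6 Reg- libraries took no part in it, and Reg- uncut lies near Reg+ amputated, at 0.0191% to 0.0467% in the left panel.

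The libraries of the Reg- region took no part in choosing these contigs. The 597 took 0.674%, 1.61% and 1.5% of reads in Reg- amputated replicates 1, 2 and 3 and 0.0467%, 0.0211% and 0.0191% in Reg- uncut replicates 1, 3 and 4. In the 12-library fit, 517 of the 597 were called higher after amputation in the Reg- region and none lower, where 2.83% of all tested contigs were called, 1.73% higher and 1.1% lower. Of the 135 that rose, 118 were called lower there and none higher. The difference between the Reg+ and Reg- responses, tested as an interaction, was called for 554 of the 597 and 132 of the 135, against 8.32% of all tested contigs. It was also called for 520 of the 944 contigs that fell less than 2-fold and 319 of the 751 that rose less than 2-fold. The interaction includes the Reg+ contrast by which all of these were chosen.

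The most abundant contigs were called at shares near the 11.2% of all tested contigs. Of the 100 with the highest mean RPKM, 7 rose and 2 fell (9.0% called), and of the first 1000, 80 rose and 45 fell (12.5%). At the top of the order, contig141585 (1572 nt, mean 30000 RPKM) stood at 56700, 61400 and 47700 CPM in amputated and 39400, 41600 and 36200 CPM in uncut replicates 1, 2 and 3. The ranges of the groups did not overlap, yet the log2 fold change of 0.59 ± 0.19 (standard error, as after ± for log2 values below) did not pass the test (adjusted p 0.0838 by edgeR). This call turned with the method: the adjusted p was 0.0208 by DESeq2 and 0.0136 by edgeR with no read minimum. Of all tested contigs 35.8% had ranges of CPM that did not overlap.

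The next contigs by level were of the same kind. The shorter contig109321 (254 nt, 21700 RPKM), contig93446 (212 nt, 11800 RPKM), contig91603 (222 nt, 5930 RPKM) and contig138154 (394 nt, 4820 RPKM) had log2 fold changes of 0.62, 0.52, 0.56 and 0.63, with adjusted p of 0.0614, 0.06, 0.0658 and 0.0766 by edgeR. Their groups did not overlap either, and all 4 were called by DESeq2 (adjusted p 0.016 to 0.0425). By contrast, contig505 (1326 nt, 10200 RPKM), contig138740 (744 nt, 4350 RPKM) and contig20403 (853 nt, 3990 RPKM) had overlapping groups and log2 fold changes of 0.04, 0.18 and 0.08, none of them called (adjusted p 0.347 to 0.898 by edgeR). The evenest was contig147498 (2051 nt, 3830 RPKM), at 7490, 7860 and 7410 CPM in amputated and 7980, 8280 and 8040 CPM in uncut libraries. These ranges did not overlap, with amputated libraries lower, but the printed CPM lack the TMM scaling of the fit. After that scaling the log2 fold change was -0.01 ± 0.14.

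One abundant contig varied far more between pools than between groups. The CPM of contig145313 (911 nt, 3950 RPKM) were 112, 726 and 7120 in amputated replicates 1, 2 and 3 and 3840, 7230 and 2580 in uncut replicates 1, 2 and 3. The amputated libraries alone spanned more than the whole uncut range, and the log2 fold change was -0.75 ± 1.16 (adjusted p 0.7 by edgeR).

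The abundant contigs that rose did so modestly, with 1 exception. For contig147544 (725 nt, 1130 RPKM) the values were 1280, 1640 and 1310 CPM in amputated and 257, 226 and 224 CPM in uncut replicates 1, 2 and 3. Amputated libraries were all above uncut ones by a wide margin, and the log2 fold change was 2.67 ± 0.17 (adjusted p 0.00019 by edgeR). It also showed the greatest gain in mean CPM of all called contigs with separate groups, and it was called whichever of the 6 libraries was left out. A smaller rise was that of contig37768 (335 nt, 1190 RPKM), at 618, 455 and 518 CPM against 228, 334 and 250 CPM. Its log2 fold change was 1.04 ± 0.19 (adjusted p 0.0186 by edgeR). Still smaller were the changes of contig117424 (358 nt, 3670 RPKM) and contig12023 (639 nt, 1780 RPKM), at 0.67 and 0.66 on the log2 scale with adjusted p of 0.0354 and 0.0411. These calls were fragile: contig37768 was called in 3 of the 6 fits that left out 1 library, contig117424 in 2 and contig12023 in 1.

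Among the 4 most abundant contigs that fell with separate groups, changes ranged widely. The CPM of contig148685 (370 nt, 1170 RPKM) were 18.5, 22.3 and 14.5 in amputated and 496, 1040 and 1010 in uncut replicates 1, 2 and 3. All amputated libraries lay far below all uncut libraries, with a log2 fold change of -5.44 ± 0.38 (adjusted p 0.000234 by edgeR). In contig30322 (305 nt, 675 RPKM) the change was larger, from 279, 485 and 470 CPM in uncut to 0.64, 0.328 and 1.07 CPM in amputated libraries, or 8 to 30 reads each. Its log2 fold change was -9.15 ± 0.45 (adjusted p 9.5e-05). For both contigs uncut replicate 1 was the lowest of its group, and both were called whichever library was left out.

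The other 2 fell less. The highest by level, contig2807 (637 nt, 1740 RPKM), was at 167, 274 and 685 CPM in amputated and 1950, 2160 and 1410 CPM in uncut libraries. Amputated replicate 3 came closest to the uncut group, and the log2 fold change of -2.23 ± 0.48 (adjusted p 0.0286) was called in only 2 of the 6 fits that left out 1 library and not in the 12-library fit (adjusted p 0.0508). For contig612 (1483 nt, 783 RPKM) amputated libraries agreed closely, at 788, 788 and 811 CPM, below 1240, 1590 and 1750 CPM in uncut libraries (log2 fold change -0.86 ± 0.16, adjusted p 0.0178). It was called in 4 of those 6 fits. Among called contigs with separate groups the greatest loss in mean CPM was that of contig2918 (5958 nt, 361 RPKM), from 2570, 2350 and 4170 CPM in uncut to 1200, 945 and 1660 CPM in amputated libraries, a log2 fold change of -1.18 ± 0.26 (adjusted p 0.0295). This call was held in 3 of the 6 fits and lost in the 12-library fit (adjusted p 0.0719).

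The shift in reads was carried by many contigs. The contigs that rose gained 40880 CPM in all between the group means, and the 10 with the largest differences made up 11.5% of this. Contigs in the other direction together fell by 51730 CPM, of which the first 10 made up 14.8%. It took 144 contigs to reach 50% of the gain and 148 to reach 50% of the loss.

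The largest rises measured with at least 10 reads in each library were 81.3-fold to 99.2-fold. In contig6732 (899 nt) amputated replicates 1, 2 and 3 had 54.7, 66.1 and 74.8 CPM, and uncut replicates 0.658, 0.839 and 0.545 CPM, or 12 to 25 reads. Its log2 fold change was 6.63 ± 0.24 (99.2-fold, adjusted p 3.4e-05 by edgeR). Similarly, contig6833 (1207 nt) went from 2.37, 3.72 and 2.36 CPM in uncut to 210, 259 and 278 CPM in amputated libraries (log2 fold change 6.53 ± 0.28, adjusted p 6.61e-05). In both, replicates of each group lay far closer to each other than to the other group.

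The next by size were less even. The amputated CPM of contig13191 (820 nt) were 91.1, 264 and 108 against 0.767, 1.31 and 4.13 in uncut libraries, and those of contig138882 (417 nt) were 231, 490 and 196 against 1.42, 2.25 and 8.80. In both contigs amputated replicate 2 was highest among amputated libraries and uncut replicate 3 highest among uncut ones. Log2 fold changes were 6.38 ± 0.75 and 6.35 ± 0.79 (adjusted p 0.00295 and 0.00383). All 4 of these contigs were called whichever library was left out.

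The largest falls measured with at least 10 reads in each library were 457-fold to 690-fold. In contig11813 (470 nt) uncut replicates 1, 2 and 3 had 403, 461 and 725 CPM, and amputated replicates 0.704, 0.41 and 1.04 CPM, or 10 to 29 reads. Its log2 fold change was -9.43 ± 0.39 (690-fold, adjusted p 6.61e-05 by edgeR). For contig15868 (899 nt) the values were 140, 392 and 412 against 0.416, 0.533 and 0.643 CPM, for contig20822 (776 nt) 216, 487 and 864 against 1.54, 0.492 and 1.07 CPM, and for contig12298 (655 nt) 149, 494 and 417 against 0.991, 0.698 and 0.5 CPM. In all 4, uncut replicate 1 was the lowest uncut library and still over 100-fold above every amputated library. The last 3 had log2 fold changes between -9.14 and -8.84 with adjusted p from 0.00017 to 0.000349 by edgeR, and all 4 were called whichever library was left out.

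A few contigs had no read at all in 1 group. Of the tested contigs, 104 were without reads in amputated libraries and 2 without reads in uncut libraries. All were called. With no read in 1 group, they could reach the read minimum only through every library of the other, so a difference was set by the filter. Contigs that reached the minimum through 1 group alone could still have reads in the other. They had at least 10 reads in each library of that group and fewer in each of the other. The filter thus set the direction of their reads as well. Of the 990 that reached it in uncut libraries alone, 67.4% were called lower. Of the 714 that reached it in amputated libraries alone, 59.9% were called higher. Of the 44918 with at least 10 reads in all 6 libraries, 2661 rose and 2008 fell (10.4% called). The shares of 67.4% and 59.9% are not comparable with this one, because of that filter.

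The 2 contigs without uncut reads were contig130914 (230 nt), with 499, 155 and 112 reads in amputated replicates 1, 2 and 3, and contig121180 (208 nt), with 23, 17 and 14. They were at least 242-fold and at least 17.1-fold higher after amputation, against a floor of 3 reads over the uncut group (adjusted p 0.00708 and 0.00719 by edgeR). Among those without amputated reads, contig115537 (450 nt) had 236, 509 and 1017 reads in uncut replicates 1, 2 and 3, contig117790 (285 nt) 184, 604 and 520, and contig66832 (281 nt) 182, 374 and 263. On the same floor they were at least 620-fold, 460-fold and 288-fold lower (adjusted p 0.00767, 0.004 and 0.000804). Uncut replicate 1 was again the lowest uncut library in all 3. The bounds cover counting error only.

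Large changes were not always the most regular ones. Called contigs with at least 10 reads in each library were ranked by the gap between groups over the larger spread inside a group. The first that fell was contig16291 (1603 nt), at 25.4, 26.2 and 25.1 CPM in amputated and 122, 114 and 116 CPM in uncut libraries. The gap on the log2 scale was 21.8 times the larger within-group range, for a log2 fold change of -2.12 ± 0.11 (adjusted p 0.000114 by edgeR). After it came contig6280 (1240 nt), at 2.17, 1.89 and 2.04 against 13.9, 13.0 and 14.6 CPM, and contig396 (1410 nt), at 3.45, 3.53 and 3.68 against 8.33, 8.18 and 7.90 CPM, with log2 fold changes of -2.68 and -1.11. All 3 held in each of the 6 fits that left out 1 library.

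By the same ranking, the first contig that rose was contig7711 (1167 nt), at 45.3, 47.4 and 43.1 CPM in amputated and 16, 16.4 and 15.9 CPM in uncut libraries. Its log2 fold change was 1.57 ± 0.12 (adjusted p 0.0004). Second in this order was contig6732, described above for its size. The third, contig4866 (1037 nt), changed little but evenly, from 18.4, 18.1 and 18.6 CPM in uncut to 26.8, 27.7 and 27.9 CPM in amputated libraries (log2 fold change 0.66 ± 0.11, adjusted p 0.0132), and was called in 3 of the 6 fits.

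**Figure D4:**
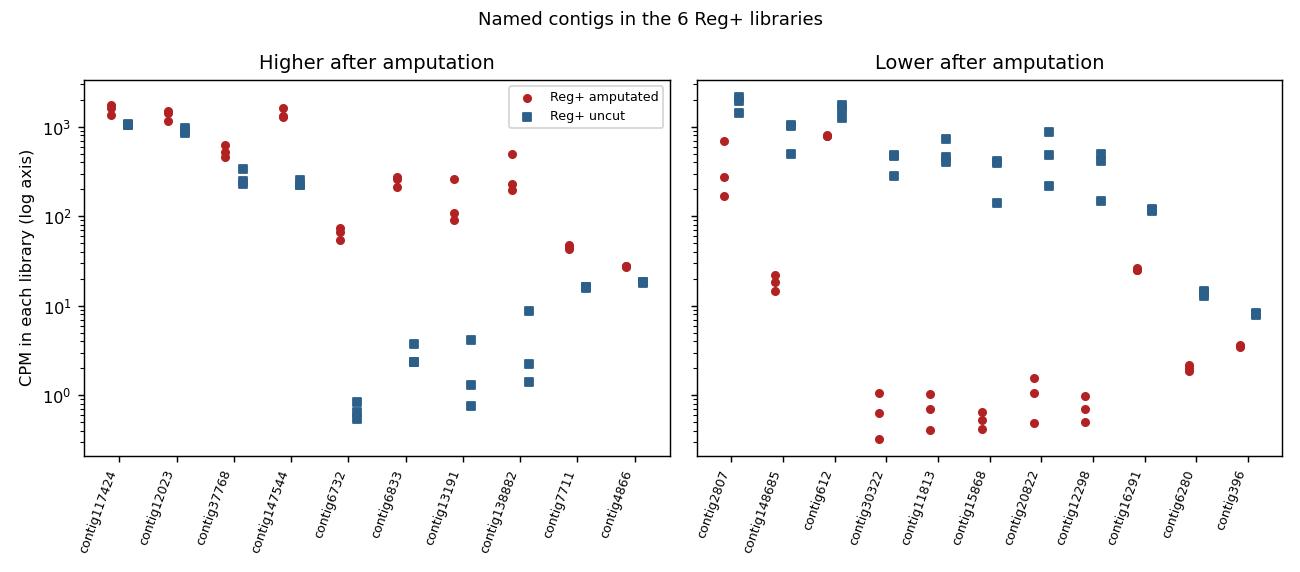
CPM of named contigs (log axis) in each Reg+ library, amputated as circles and uncut as squares; the first 4 contigs of each panel are the most abundant called ones, followed by those with the largest and the most regular changes. The replicates of contig16291 lie at 25.1 to 26.2 CPM and 114 to 122 CPM, while those of contig13191 spread from 91.1 to 264 CPM in amputated libraries.

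Some large differences did not pass the test, and in each of the 3 named for this 1 uncut library stood apart. In contig99907 (219 nt) uncut replicates 1, 2 and 3 had 2.08, 11.5 and 1340 CPM, and amputated replicates 10, 1.72 and 12.6 CPM. The log2 fold change of -5.70 ± 2.14 (adjusted p 0.121 by edgeR) rested on uncut replicate 3 and was 0.25 without it. In contig146701 (595 nt) and contig7138 (1130 nt) uncut replicate 3 was instead the library nearest to the amputated group. The former had 46.4, 49.1 and 30.2 CPM in amputated and 0.877, 0.872 and 11.6 CPM in uncut libraries, and the latter 253, 257 and 204 against 6.54, 7.14 and 66.7 CPM. Their log2 fold changes of 3.38 and 3.27 gave adjusted p of 0.0537 and 0.0501, by edgeR. Each was called once uncut replicate 3 had been left out, and also with all 6 libraries by DESeq2 (0.0243 and 0.016) and in the 12-library fit (0.0413 and 0.0378).

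Agreement between replicates was read in libraries that had no part in a call. In turn 1 amputated and 1 uncut library were left out, contigs with at least 10 reads in 2 or more of the other 4 were tested, and the direction of change was taken from the pair left out, after the scaling of the 6 libraries. Over the 9 possible pairs, 77.5% to 100.0% of contigs called higher were higher in the pair left out (median 98.0%), and 87.7% to 100.0% of those called lower were lower (median 98.8%). For contigs not called the share with the fitted direction was 60.9% to 76.2%. Among called contigs with at least 10 reads in each of the 4 libraries, the shares were 78.0% to 100.0% for rises and 85.3% to 100.0% for falls. The lowest share, 77.5%, was found without amputated replicate 2 and uncut replicate 3, when 6806 contigs were called higher with a median log2 fold change of 1.85 and the pair left out gave a median of 0.377. Without uncut replicate 3 and amputated replicate 1 or 3, 5179 and 7120 were called higher, and the shares were 93.7% and 91.3%. Their fitted medians were 1.77 and 1.66, against 0.665 and 0.56 in the pair left out. Fits that kept uncut replicate 3 called only 158 to 670 higher, with shares of 90.9% to 100.0%. Without amputated replicate 1 and uncut replicate 1, only 197 were called higher and 696 lower, and 98.0% and 100.0% of these had the same direction in that pair. The 9 fits share libraries with one another and are not independent of each other.

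**Figure D5:**
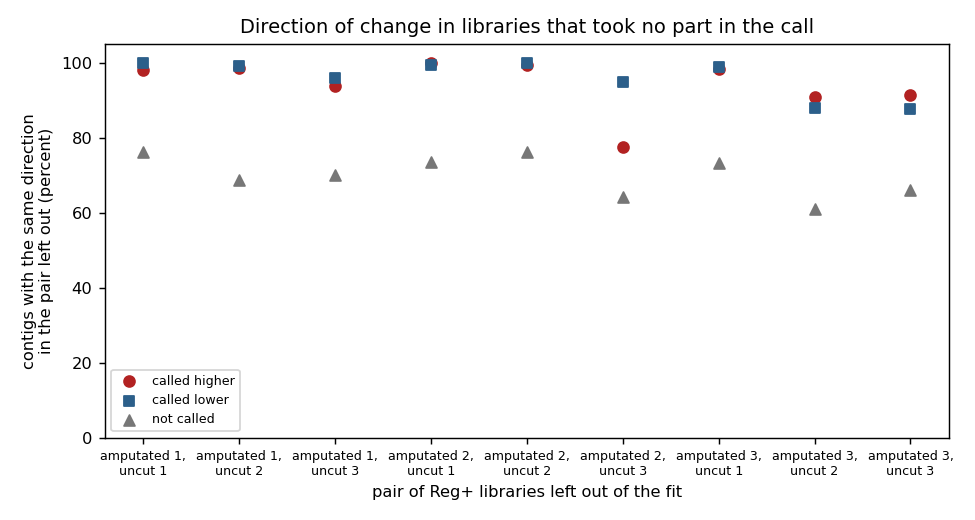
For each of the 9 pairs of 1 amputated and 1 uncut Reg+ library left out of the fit, percent of contigs whose direction in that pair was the one fitted to the other 4 libraries. Contigs called lower stay at or above 87.7% and those called higher at or above 77.5%, while contigs not called lie between 60.9% and 76.2%.

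Contigs called whichever library was left out were mostly those with large changes. In the fit of 6 libraries and in each of the 6 fits that left out 1, 493 contigs rose and 906 fell. They included 126 of the 135 contigs that rose at least 16-fold (93.3%) and 521 of the 597 that fell at least 16-fold (87.3%). At least 10 reads in every library were found for 319 of the 493 and 381 of the 906, so that over 50% of the stable falls had a library below this minimum. Of the contigs changed 2- to 4-fold, 8.78% of those that rose and 18.7% of those that fell were among them, and of those changed less than 2-fold, 2.4% and 1.8%. Their median log2 fold change was 2.27 for the 493 and -5.15 for the 906. The 12-library fit also called 386 of the 493 and 897 of the 906. None of these fits used new Reg+ libraries, and the 6 kept a read minimum that counted the library left out. Recurrence of a call in them was thus favoured in advance, also for contigs that met the minimum through 1 group alone.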

How the data were processed

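Per the labels' protocols, RNA from 12 pools of worms was made into TruSeq libraries and sequenced for 100 cycles. The deposited files hold, per the file headers, 2 counts for every contig (total and uniquely assigned reads, not normalized) and the authors' RPKM. The deposited RPKM equal total reads over contig length and column total to within 0.0078. How reads were aligned and counted, and how reads matching more than 1 contig were assigned, is not given in the sources used here.

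Total reads of the 6 Reg+ libraries were fitted with edgeR 4.0.16 in R 4.3.3 (TMM scaling, a mean per group, quasi-likelihood test), for contigs with at least 10 reads in 3 or more libraries. Calls were made at an adjusted p (Benjamini-Hochberg) under 0.05, two-sided. CPM and RPKM printed per library were computed from total reads without TMM factors. A standard error is the log2 fold change divided by the root of its F statistic, and is unreliable where a group has few reads. Correlations used CPM plus 0.1. The interaction and the Reg- response came from a fit of all 12 libraries to the same contigs.

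The members, the bands and the naming rule were chosen with earlier results of these data known, including those of the 12-library fit, which is used here as an alternative. Contigs were named for level (10), and per direction for level among called contigs (4), size (4), CPM moved (3), regularity (3) and absence from 1 group (up to 3), and 3 for large differences that were not called. Replicate pairs had a chi-square per degree of freedom of at least 9.676, so no library repeated another. Intervals for single values were not computed, and floors cover counting error only. Alternatives were DESeq2 1.42.0, other scalings and filters, unique reads, a replicate block, a minimum fold, and libraries left out. The read minimum over only the libraries kept, used to read directions in a pair left out, was chosen after seeing the data.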

Additional observations from a re-analysis of the deposited data

Results flagged for a closer look

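The response to amputation, as labelled, differed between the Reg+ and Reg- regions for 4732 contigs by the interaction test of the 12-library fit (edgeR, adjusted p under 0.05). A positive interaction means a higher log2 fold change in Reg+ than in Reg- tissue. Many of the contigs named here were chosen for their Reg+ change, which is part of the interaction, so their values are a description.

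Among the most abundant contigs it was 1.18 for contig109321, 1.19 for contig93446, 1.26 for contig138154 and 1.20 for contig12023. Further positive values were 2.05 for contig37768, 5.51 for contig147544, 2.87 for contig7711 and 0.91 for contig4866. For the largest rises it was 12.96 for contig6732, 13.21 for contig6833, 12.01 for contig13191 and 12.21 for contig138882. For the contigs without uncut reads it was 17.84 for contig130914 and 14.74 for contig121180, values that depend on the prior count. The contigs that narrowly missed a call in Reg+ had 5.16 for contig146701 and 5.13 for contig7138.

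Negative values were -3.99 for contig2807, -10.19 for contig148685, -1.56 for contig612, -17.76 for contig30322, -17.51 for contig11813, -18.23 for contig15868, -16.43 for contig20822 and -17.22 for contig12298. The most regular falls had -4.46 for contig16291, -5.61 for contig6280 and -2.09 for contig396. Those without amputated reads had -20.46 for contig115537, -20.90 for contig117790 and -22.00 for contig66832, which again depend on the prior count. Groups of 3 libraries are too small for the test of a single outlying sample.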

How the results depend on the processing

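Of the 6384 calls, 3437 rose and 2947 fell. Contigs that rose numbered 1371 in the 12-library fit, 5371 with DESeq2, 1835 with library size alone, 5843 with no filter and 1957 with at least 50 reads in 3 libraries, while the total and the number that fell stayed within 1.5 times. Contigs changed at least 4-fold went from 1547 to 2597 with no filter and 862 with at least 50 reads, and rises of at least 16-fold from 135 to 298 with no filter. A test against a fold of 2 (glmTreat) called 1005, of which 303 rose and 702 fell. Upper-quartile scaling, filterByExpr and unique reads stayed within 1.5 times. Leaving out 1 library, or 1 of each group, gave 593 to 11419 calls, 158 to 7269 that rose and 435 to 4310 that fell. The interaction count ran from 2930 (without Reg- uncut replicate 3) to 11859 (without Reg- amputated replicate 3), and the count of the Reg- response from 1096 to 1947. The cause of these shifts was not tested.

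Deviations from the group mean correlated at -0.0326, 0.3 and 0.0864 between amputated and uncut libraries of replicate numbers 1, 2 and 3. The uncut library of the same number was the closest match only for amputated replicate 2. These values are too few to tell whether replicate numbers mark pairs. A fit with the replicate block called 8610, of which 4899 rose and 3711 fell.

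Signs turned only among named contigs that were not called. With upper-quartile scaling the log2 fold change of contig505 was -0.0296, and with library size alone it was -0.0442 for contig505 and -0.0059 for contig20403. Without 1 library or 1 of each group it ran from -0.12 to 0.18 for contig505, -0.19 to 0.49 for contig20403, -0.11 to 0.0839 for contig147498, -3.66 to 0.38 for contig145313 and -6.73 to 0.71 for contig99907. Of the interactions, the contig147498 interaction ran from -0.10 to 0.0185, the contig99907 interaction from -11.95 to 2.21 and the contig20403 interaction from -0.11 to 0.84. Depth limits contigs with few reads in 1 group, whose fitted size depends on the prior count.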
